A study of Sus scrofa with 3 samples.

Results

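Hepcidin and the genes of iron transport, storage and sensing were followed across 3 pig liver RNA-Seq libraries. The group was defined as 10 gene symbols, HAMP, BMP6, TFR2, TFRC, HFE, TF, FTH1, FTL, SLC40A1 and CP, and a member was found where the gene identifier of a row equalled its symbol. This gave 9 genes out of 22945 mRNA features, within 34579 features in all. HFE was not analysed here. All 9 genes passed the FPKM minimum of 1 in each of the 3 libraries.

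The libraries came from male Chinese Wuzhishan pigs, a miniature breed. The labels give an age of 6 to 7 months, which by the methods is that on entering the study, before acclimation and the diet. All groups ate a high-fat, high-cholesterol (HFC) diet with added lard, egg yolk powder, cholesterol and sodium cholate. IM pigs were intact males that had a sham operation, CM pigs were castrated, and CMT pigs were castrated and given weekly intramuscular testosterone propionate from the day of surgery. The study compared these groups to learn how the liver of an HFC-fed male responds when testosterone is lost and when it is replaced. By the labels each pool held RNA of 3 pigs, while the methods describe larger groups and do not state how many pigs were pooled. Total liver RNA of a group was mixed in equal amounts, so that each group had 1 library, which carries no information on the spread between pigs. No p-value was therefore computed. A gene was counted as higher or lower when its FPKM ratio reached 1.5-fold. FPKM counts fragments per kilobase of transcript and scales them to the library, so levels of different genes can be set side by side per length. The intervals are 95% exact binomial intervals on reads recovered from the FPKM steps, and they cover counting error only. Since whole liver was sequenced, fewer cells of a type and less RNA per cell cannot be told apart.

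Hepcidin, encoded by HAMP, is a peptide hormone secreted by hepatocytes that binds the iron exporter ferroportin and causes its degradation, and so limits the entry of iron into plasma. Its transcription is driven by BMP6, a ligand supplied mainly by the endothelial cells of the liver sinusoids, through SMAD proteins in the hepatocyte, and by IL6 through STAT3, while testosterone is known to suppress it. Inside cells, iron regulatory proteins stabilise the transferrin receptor mRNA and block the translation of ferritin mRNA when iron is scarce, so ferritin is regulated largely after its mRNA is made.

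Recovered reads totalled between 25418981 in CMT and 36125166 in CM. The deposited values follow a recovered divisor per library, 2.51 in IM, 3.42 in CM and 2.04 in CMT, not these totals. In the same unit the totals were 32.2, 36.1 and 25.4, so the levels stand higher than FPKM scaled to read totals would. By these divisors, 3 reads on a transcript of 1 kilobase corresponded to between 0.877 and 1.47 FPKM. The FPKM minimum of 1 is on this scale too. The hepatocyte markers were abundant in each library, with albumin (ALB) at 690375 FPKM in IM, 476360 FPKM in CM and 445509 FPKM in CMT. All 8 hepatocyte markers had a ratio of CM to IM below 1, and 0 of them passed the threshold. The scale of the CM library was uncertain, because scaling to read totals or to equal column sums raised the median log2 ratio of all genes by 0.28 or 0.26 for CM versus IM and lowered it by 0.24 or 0.25 for CMT versus CM. Scaling to the hepatocyte markers, chosen after seeing the data, moved these medians by 0.34 and -0.28. Of the calls past 1.5-fold over all genes, 48.0% were higher in CM than in IM in the deposited values, against 75.1%, 77.4% and 82.6% under these 3 scalings. For CMT versus CM, 47.3% of the calls were higher, against 22.7%, 23.3% and 20.7%. A rank among the 15613 genes compared does not move with the scale, so ranks are given for the main genes.

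**Figure D1:**
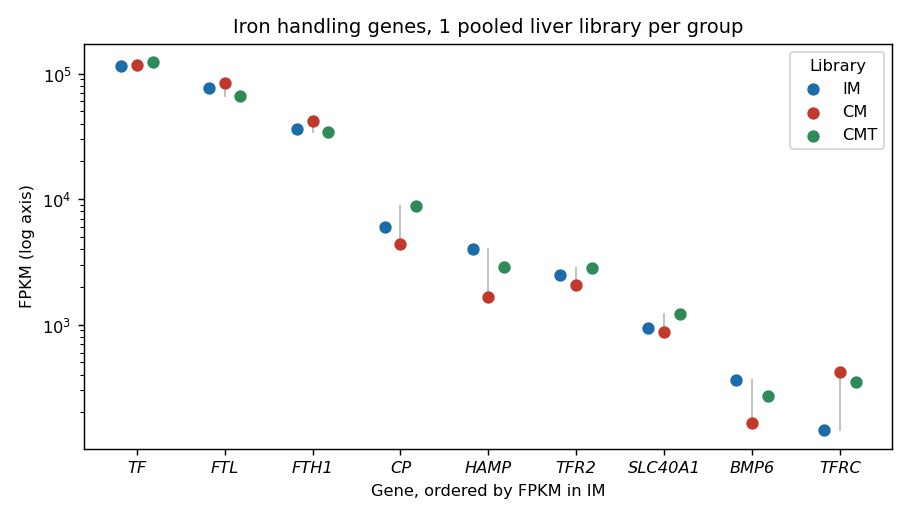
FPKM of the 9 genes on a log axis, with 1 point for each of the pooled libraries IM, CM and CMT and a grey line from the lowest to the highest of the 3. HAMP, BMP6, CP, TFR2 and SLC40A1 have their lowest point in CM, which depends on the scaling for TFR2 and SLC40A1, TFRC has its lowest in IM, and the points of TF lie between 115328 and 122937 FPKM.

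Castration was compared with the intact state first. Of the 9 genes, 2 were lower in CM than in IM, HAMP and BMP6, and 1 was higher, TFRC. Over all 15613 mRNA features above the FPKM minimum, 12.1% were lower and 11.1% were higher. The other 6 genes differed by less than 1.5-fold. The 3 calls kept their direction and passed 1.5-fold under each of the 4 other scalings.

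HAMP stood at 4028 FPKM in IM, 1669 FPKM in CM and 2875 FPKM in CMT, from 4034, 2278 and 2340 reads. IM was the highest library, CM the lowest and CMT lay between them. The ratio of CM to IM was 0.414 (95% interval 0.394 to 0.436), a level 2.41-fold lower, and 440 of the 15613 genes had a lower ratio. Under the other scalings the same ratio ran up to 0.526. Among the 15613 genes ordered by FPKM, HAMP was at place 303 in IM, 510 in CM and 396 in CMT.

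BMP6, the ligand that signals to the hepatocyte to make hepcidin, stood at 362 FPKM in IM, 163 FPKM in CM and 268 FPKM in CMT, from 1492, 917 and 898 reads. The 3 libraries took the same order as for HAMP. The ratio of CM to IM was 0.451 (0.415 to 0.490), a level 2.22-fold lower, and 553 genes had a lower ratio. Within a library, the level of HAMP per BMP6 stood in IM at 11.1 (10.5 to 11.8), in CM at 10.2 (9.47 to 11.1) and in CMT at 10.7 (9.93 to 11.6), a pair chosen after the values were seen. The intervals of these 3 ratios overlap, and the ratio within a library does not depend on the scaling between libraries.

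BMP6 was also set against the markers of the cells that supply it. BMP6 per PECAM1, an endothelial adhesion molecule, was, in the order IM, CM and CMT, 0.856, 0.480 and 0.641, and BMP6 per STAB2, a scavenger receptor of the sinusoidal endothelium, was 2.12, 1.07 and 1.75. Of the 15613 genes, 15059 had a higher ratio of CM to IM than BMP6, and 14194 a lower ratio of CMT to CM. BMP6 was thus lowest in CM against most genes of any kind, so a count of markers is not particular to endothelium. Against the 14 sinusoidal and other endothelial markers above the FPKM minimum, BMP6 per marker was lowest in CM for 13. The exception was FCN2, a ficolin at 1399, 744 and 1887 FPKM, against which BMP6 stood at 0.259, 0.219 and 0.142, lowest in CMT. FCN2 was also the 1 of 7 sinusoidal markers lower in CM than in IM, a share of 14.3%, near the 12.1% of all genes. In CMT versus CM, 1 of the 7 was higher, FCN2 at 2.54, and 1 lower, LYVE1 at 0.656. These shares of 14.3% were near the 12.1% higher and 13.5% lower of all genes. The summed level of the 7 was 5311 FPKM in IM, 3954 FPKM in CM and 5553 FPKM in CMT, with none at 0. The part of these cells in the BMP6 result was not tested.

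HAMP was set against the hepatocyte in the same way. HAMP per HNF4A, a hepatocyte transcription factor, stood in IM at 4.49 (4.33 to 4.66), in CM at 2.01 (1.92 to 2.1) and in CMT at 2.58 (2.47 to 2.70). HAMP per ALB was 0.00583, 0.00350 and 0.00645. HAMP per marker was lowest in CM for each of the 8 hepatocyte markers, while CMT was below IM against HNF4A and above IM against ALB. Of the 15613 genes, 15172 had a higher ratio of CM to IM than HAMP, and 14461 a lower ratio of CMT to CM. HAMP was thus lowest in CM against most genes of any kind, and the count of markers is not particular to hepatocytes. The summed level of the 8 hepatocyte markers, of which ALB made up most, was 874032 FPKM in IM, 621257 FPKM in CM and 614134 FPKM in CMT.

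TFRC, the transferrin receptor through which most cells take up iron, showed another order. Its level was 144 FPKM in IM, 421 FPKM in CM and 349 FPKM in CMT, from 860, 3435 and 1699 reads. IM alone was low and the 2 castrated groups were high. The ratio of CM to IM was 2.93 (2.72 to 3.16), and 281 of the 15613 genes had a higher ratio. Under the other scalings this ratio ran up to 3.72. TFRC is abundant in red cell precursors and in dividing cells, so the markers of blood cells were read beside it. Of the 14 erythroid markers listed, 4 passed the FPKM minimum and 3 of these were lower in CM than in IM, against 12.1% of all genes. Summed levels over the list, in the order IM, CM and CMT, were 17351, 3484 and 5249 FPKM. The erythroid transcription factor KLF1 was listed at 0 in each library. HBB, the beta chain of hemoglobin, was at 17158, 3400 and 5151 FPKM. It made up most of the summed erythroid level and ran opposite to TFRC between IM and CM. GYPC, the other of the 4, was at 47.5, 58.2 and 47.0 FPKM, with an interval for CM to IM from 0.926 to 1.63. Of 6 T and NK cell markers, 0 reached 1.5-fold in CM versus IM, with a median log2 ratio of 0.45 and summed levels of 413, 561 and 309 FPKM. Under the scalings to column sums, read totals and hepatocyte markers, 5 of 6 were higher in CM. The share of all genes higher in CM rose too, from 11.1% to 20.7%, 22% and 26.3% under those 3 scalings. Markers of dividing cells were not read. The part of red cell precursors, dividing cells and lymphocytes in the TFRC result was not tested.

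TFR2, the second transferrin receptor, senses iron-loaded transferrin on the hepatocyte and feeds into hepcidin control. It was at 2496 FPKM in IM, 2055 FPKM in CM and 2803 FPKM in CMT, with a ratio of CM to IM of 0.823 (0.807 to 0.840) that did not pass the threshold. That ratio was 1 after scaling to read totals and 1.05 after scaling to the hepatocyte markers, so it has no direction that holds under every scaling. HAMP per TFR2 stood in IM at 1.61 (1.56 to 1.67), in CM at 0.812 (0.778 to 0.848) and in CMT at 1.03 (0.982 to 1.07). HAMP was thus above TFR2 per length in IM and below it in CM, and in CMT the interval of the ratio took in 1. TFRC per TFR2 was 0.0576, 0.205 and 0.125 in the same order, so the ubiquitous receptor stayed well under the hepatocyte receptor in each library.

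The carrier and the stores were the most abundant of the group. TF, transferrin, the plasma carrier of iron, was at 115328 FPKM in IM, 118067 FPKM in CM and 122937 FPKM in CMT, with ratios of 1.02 for CM to IM and 1.04 for CMT to CM, the latter falling to between 0.860 and 0.883 under the scalings to column sums, read totals and hepatocyte markers. In the reference annotation Sscrofa11.1 there are 2 neighbouring genes with the symbol TF, so how the reads of the TF row were divided is uncertain. FTL, the ferritin light chain, was at 76882, 84454 and 65805 FPKM, and FTH1, the ferritin heavy chain, at 36534, 41983 and 34230 FPKM, in the order IM, CM and CMT. Both chains were highest in CM, with ratios of CM to IM of 1.1 and 1.15, which did not pass the threshold. Ferritin genes have many near-identical copies in mammalian genomes, so their reads could have been split between rows. Light per heavy chain was 2.1, 2.01 and 1.92 in that order.

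Export was represented by SLC40A1 and CP. SLC40A1, ferroportin, the exporter that hepcidin acts on, was at 941 FPKM in IM, 879 FPKM in CM and 1211 FPKM in CMT. Its reads could not be recovered, so no interval is given. The ratio of CM to IM was 0.934 in the deposited values, and between 1.12 and 1.19 under the scalings to column sums, read totals and hepatocyte markers. CP, ceruloplasmin, the copper ferroxidase of plasma that loads iron onto transferrin, was at 5998 FPKM in IM, 4429 FPKM in CM and 8769 FPKM in CMT. Its ratio of CM to IM, 0.738 (0.731 to 0.746), did not pass the threshold.

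**Figure D2:**
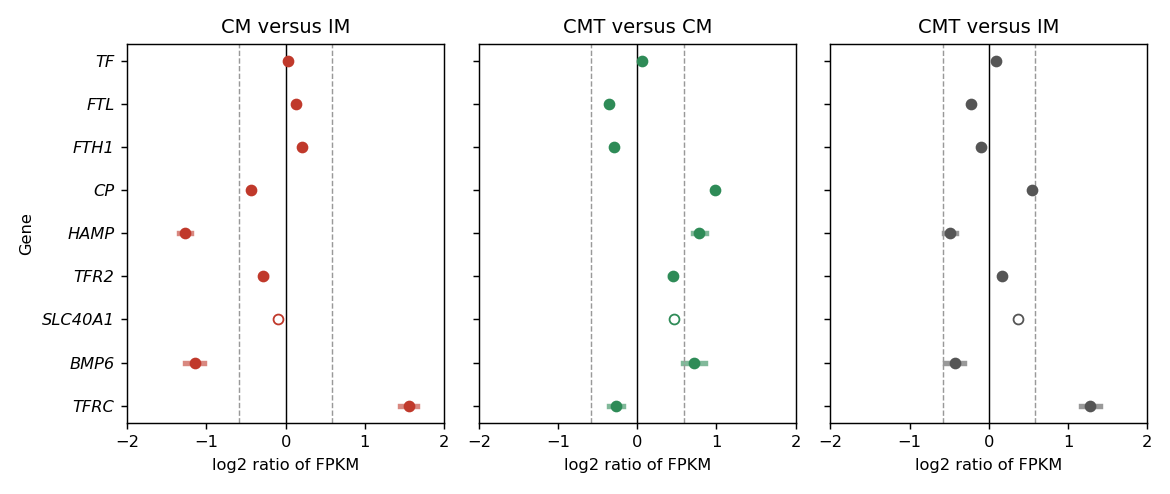
Log2 ratio of FPKM for each of the 9 genes in the 3 comparisons, with bars for 95% exact binomial counting intervals, an open point where reads could not be recovered, and dashed lines at 1.5-fold. HAMP (-1.27) and BMP6 (-1.15) lie left of the line and TFRC (1.55) lies right of it for CM versus IM, while CP (0.99), HAMP (0.78) and BMP6 (0.72) lie right of it for CMT versus CM, where HAMP and BMP6 drop under the line when libraries are scaled to column sums, read totals or hepatocyte markers.

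Testosterone replacement was compared with castration alone next. This comparison shares the CM library with the comparison above, so a deviation of that single library enters both with opposite sign. Of the 9 genes, 3 were higher in CMT than in CM, CP, HAMP and BMP6, and 0 were lower. Over all genes, 12.1% were higher and 13.5% were lower.

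CP had the highest ratio of the 9 genes, 1.98 (1.96 to 2), and 772 genes had a higher ratio. It remained past the threshold under every scaling, at 1.64 or above. HAMP had a ratio of CMT to CM of 1.72 (1.62 to 1.83), with 1151 genes higher, and BMP6 had 1.64 (1.5 to 1.8). Neither passed 1.5-fold after scaling to column sums, read totals or hepatocyte markers, where HAMP was between 1.42 and 1.46 and BMP6 between 1.36 and 1.39.

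The other 6 genes did not pass the threshold in the deposited values. SLC40A1 and TFR2 had ratios of CMT to CM of 1.38 and 1.36, TF 1.04, TFRC 0.829 (0.782 to 0.879), FTH1 0.815 and FTL 0.779. FTL reached 1.51-fold lower after scaling to read totals, 1.52-fold after scaling to column sums and 1.55-fold after scaling to the hepatocyte markers. The 9 genes had medians on the log2 scale of 0.45 in CMT versus CM and -0.10 in CM versus IM, against 0.01 and -0.02 for all genes. Under those 3 scalings the median of the 9 for CM versus IM was between 0.16 and 0.25, against 0.24 to 0.32 for all genes. For CMT versus CM it was between 0.17 and 0.21, against -0.26 to -0.23 for all genes.

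Read over the 3 libraries together, CM was the lowest library by 1.5-fold or more against IM and against CMT for 2 of the 9 genes, HAMP and BMP6, and the highest for 0. Over all genes, 7.12% were lowest in CM by this rule and 6.87% were highest. After scaling to column sums, read totals or hepatocyte markers, 0 of the 9 met the rule.

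**Figure D3:**
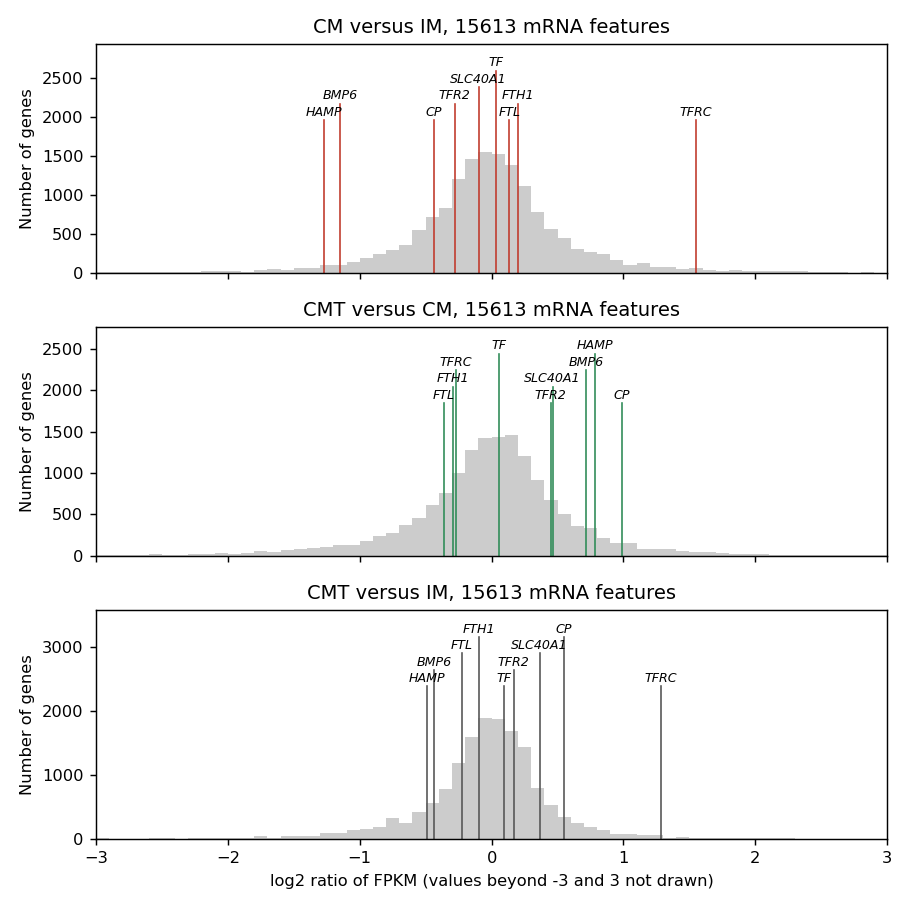
Number of genes by log2 ratio of FPKM for the 15613 mRNA features above the FPKM minimum in each comparison, in bins of equal width, with vertical lines at the 9 iron handling genes. HAMP and BMP6 lie in the left tail and TFRC in the right tail for CM versus IM, and TFRC alone of the 9 lies past 1.5-fold for CMT versus IM, where CP reaches that fold only when libraries are scaled to read totals or hepatocyte markers.

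Replaced animals were last compared with intact ones. Of the 9 genes, 1 was higher in CMT than in IM, TFRC, and 0 were lower, against 6.67% higher and 10.1% lower over all genes. The TFRC ratio of CMT to IM was 2.43 (2.24 to 2.64), with 188 genes higher, and it stood between 2.43 and 2.55 under the other scalings. Of the log2 difference of TFRC between CM and IM in the deposited values, 82.6% was still present in CMT. For HAMP and BMP6 the corresponding shares were 38.3% and 37.7%, with ratios of CMT to IM of 0.714 (0.678 to 0.751) and 0.741 (0.681 to 0.805). Neither ratio passed 1.5-fold, and the upper bounds of both intervals lay below 1. CP had a ratio of CMT to IM of 1.46 (1.45 to 1.48) and reached 1.51 after scaling to read totals and 1.53 after scaling to the hepatocyte markers. SLC40A1 was at 1.29, TFR2 at 1.12, TF at 1.07, FTH1 at 0.937 and FTL at 0.856.

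In the order of levels per length, TF, FTL and FTH1 came first in each library. In IM they were followed by CP, HAMP, TFR2, SLC40A1, BMP6 and TFRC. In CM, TFR2 stood above HAMP and TFRC above BMP6. In CMT, HAMP and TFR2 did not differ beyond counting error, and TFRC was again above BMP6.

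The wider pathway was read from 7 lists with 88 genes, of which 83 had a row and 76 passed the FPKM minimum. For CM versus IM, 3 of the 76 were higher and 10 were lower, shares of 3.95% and 13.2% against 11.1% and 12.1% of all genes, and the median on the log2 scale was -0.21. For CMT versus CM, 14 were higher and 6 were lower, shares of 18.4% and 7.89% against 12.1% and 13.5%, with a median of 0.23. The splits turned with the scale of the CM library. After scaling to column sums they were 9 higher and 4 lower for CM versus IM (median 0.05) and 8 higher and 13 lower for CMT versus CM (median -0.02). That scaling gave medians of 0.24 and -0.23 for all genes. Of the calls in the 7 lists, 3 of 3 higher and 2 of 10 lower for CM versus IM held under every scaling, as did 8 of 14 higher and 6 of 6 lower in CMT than in CM. Among those 6, 5 had a counting interval that left out 1, while that of FAM132B took it in.

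In the BMP and SMAD arm, 2 of 19 genes were higher in CM versus IM and 2 were lower, and 1 was higher and 3 lower in CMT than in CM. At 10.5% each way for CM versus IM, these shares were near those of all genes, 11.1% higher and 12.1% lower. For CMT versus CM the shares were 5.26% higher and 15.8% lower, against 12.1% and 13.5% of all genes. ATOH8, a BMP-responsive transcription factor of the hepatocyte, was at 18.2 FPKM in IM, 35.5 FPKM in CM and 13.4 FPKM in CMT, from 35, 93 and 21 reads, with ratios of 1.95 (1.31 to 2.96) and 0.379 (0.224 to 0.613). Its level was highest in CM, where HAMP and BMP6 were lowest. ID1, another target of BMP signals, was at 64.7, 96.1 and 61.9 FPKM, with a ratio of CM to IM of 1.49 that did not pass in the deposited values but did under each of 4 other scalings, up to 1.89, and a ratio of CMT to CM of 0.644 (0.474 to 0.866) that did. The inhibitory SMAD7, which BMP signals also induce, was at 58.9, 64.2 and 62.2 FPKM and passed in neither comparison. ID2 was lower in CM than in IM at 0.652 and was also low in CMT, at 1185, 772 and 764 FPKM, and its call in CM held under 1 of 4 scalings. For SMAD7 in both comparisons, and for ID2 in CMT versus CM, the counting interval took in 1.

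The co-receptor hemojuvelin, HFE2, was at 637 FPKM in IM, 510 FPKM in CM and 983 FPKM in CMT. It was higher in CMT than in CM, at 1.93 (1.88 to 1.97), and than in IM, at 1.54 (1.51 to 1.58), under every scaling. TMPRSS6, the protease that cleaves hemojuvelin and lowers hepcidin, was at 834, 612 and 856 FPKM and did not pass. The type I receptor ACVR1 was lower in CM than in IM at 0.656 (297, 195 and 284 FPKM), a call lost under 3 of 4 scalings. The type II receptor ACVR2A was lower in CMT than in CM at 0.540 (0.304 to 0.919), from 40, 59 and 19 reads. Of the other ligands, BMP4 was higher in CM than in IM at 1.59 (1.27 to 2.01), with 11.6, 18.4 and 12.5 FPKM, and BMP2 stood at 12.8, 9.57 and 9.85 FPKM, with an interval for CM to IM from 0.507 to 1.1. BMP6 was therefore above BMP2 and BMP4 per length in every library.

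In the IL6 and STAT3 arm, 1 of 8 genes was higher in CM versus IM and 0 were lower, and 1 was higher and 1 lower in CMT than in CM. A count of 1 in 8 is 12.5%. That is near the 11.1% of all genes higher in CM, and the 12.1% higher and 13.5% lower in CMT. IL22RA1, the receptor chain for interleukin 22, was at 26.0, 77.5 and 36.6 FPKM, with ratios of 2.98 (2.31 to 3.89) and 0.472 (0.368 to 0.601). STAT3 itself was at 627, 478 and 723 FPKM and passed in CMT versus CM, at 1.51, in the deposited values only. IL6R was at 264, 228 and 228 FPKM. SOCS3, the feedback inhibitor that STAT3 induces, was at 78.3, 93.2 and 64.8 FPKM, and both of its intervals took in 1. IL6 rested on 4, 3 and 3 reads, a level at which no difference was detectable.

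Among the androgen, growth factor and erythropoietic inputs, 3 of 7 genes were lower in CM than in IM and 0 higher, and 3 were higher and 1 lower in CMT than in CM. The shares lower in CM and higher in CMT were 42.9% each, against 12.1% of all genes in each direction. Scaled to the hepatocyte markers, 1 was lower and 1 higher in CM, and 2 were higher and 1 lower in CMT. EPOR, the erythropoietin receptor, was at 23.7, 12.5 and 57.7 FPKM, with a ratio of CMT to CM of 4.60 (3.53 to 6.04). EGF, a growth factor that lowers hepcidin in hepatocytes, was at 10.2, 3.34 and 14.7 FPKM from 18, 8 and 21 reads, and its ratio of CMT to CM was 4.40 with an interval from 1.87 to 11.5. Its receptor EGFR was at 332, 224 and 313 FPKM and did not pass. FAM132B, which encodes erythroferrone, the erythroid hormone that lowers hepcidin, rested on 8, 16 and 5 reads, and although its ratio of CMT to CM was 0.524, the interval reached from 0.150 to 1.5. EPO was listed at 0 in each library.

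Around uptake and sensing, 0 of 8 uptake, reduction and export partners and 0 of 6 sensing and ferritin handling genes passed in CM versus IM. In CMT versus CM, 1 of 8 and 0 of 6 were higher, and 0 were lower. Shares of all genes were 11.1% higher and 12.1% lower for CM versus IM, and 12.1% and 13.5% for CMT versus CM. Lists of 8 and 6 genes are too short to tell these counts from those shares. The gene higher in CMT was STEAP3, the ferrireductase that acts on iron released from transferrin. It was at 534 FPKM in IM, 357 FPKM in CM and 907 FPKM in CMT. Its ratio of CMT to CM was 2.54 (2.41 to 2.67) and that of CMT to IM 1.7 (1.62 to 1.78). SLC39A14, the importer of iron that is not bound to transferrin, was at 619, 453 and 600 FPKM. The iron regulatory proteins ACO1 and IREB2 were at 526, 480 and 535 FPKM and at 82.9, 60.8 and 81.2 FPKM, and neither passed in any comparison. TFRC per ACO1 was 0.273, 0.879 and 0.654. The plasma scavengers HP and HPX, which bind hemoglobin and heme, did not pass either. SLC11A2 was not analysed here.

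Among 16 genes of heme synthesis and breakdown, 2 were lower and 0 higher in CM than in IM, and 5 were higher and 1 lower in CMT than in CM. The share lower in CM, 12.5%, was near the 12.1% of all genes. For CMT versus CM, 31.25% were higher and 6.25% lower, against 12.1% and 13.5% of all genes. That split became 2 higher and 2 lower after scaling to column sums, read totals or hepatocyte markers. The 2 genes lower in CM than in IM were the biliverdin reductases, BLVRA at 1014, 542 and 1069 FPKM and BLVRB at 2155, 1224 and 2692 FPKM, with ratios of CM to IM of 0.535 and 0.568. Both were also higher in CMT than in CM, at 1.97 (1.86 to 2.09) and 2.20 (2.1 to 2.30), under every scaling, whereas BLVRB passed in CM versus IM under 1 of 4 scalings and BLVRA under 3. CPOX, an enzyme of heme synthesis, had a ratio of CMT to CM of 1.52, and FLVCR2, a transporter related to the heme exporter FLVCR1, had 1.68, each under 1 of 4 other scalings. SLC48A1, which carries heme out of lysosomes, was lower in CMT than in CM at 0.666 (0.476 to 0.919). HMOX1, heme oxygenase, which releases iron from heme, was at 961, 825 and 1013 FPKM and did not pass.

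Among 12 mitochondrial iron and iron-sulfur cluster genes, 3 were lower and 0 higher in CM than in IM, and the same 3 were higher in CMT than in CM. They made up 25% of the list, against 12.1% of all genes in each of these directions. GLRX5, a glutaredoxin of cluster assembly, was at 1046, 521 and 983 FPKM, with ratios of 0.498 (0.456 to 0.542) and 1.89 (1.72 to 2.07), both past the threshold under every scaling. NFS1, the cysteine desulfurase that supplies sulfur, was matched through its gene ID and stood at 478, 296 and 526 FPKM, with ratios of 0.62 and 1.78. SFXN1, a mitochondrial carrier, was at 340, 191 and 532 FPKM, with ratios of 0.563 and 2.78. The ratios of CM to IM of NFS1 and SFXN1 passed under 1 of 4 scalings, and the ratio of CMT to CM of NFS1 under 2. Scaled to the hepatocyte markers, the androgen, heme and mitochondrial lists had median log2 ratios of CM to IM of -0.22, 0.01 and -0.03, against 0.32 for all genes.

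**Figure D4:**
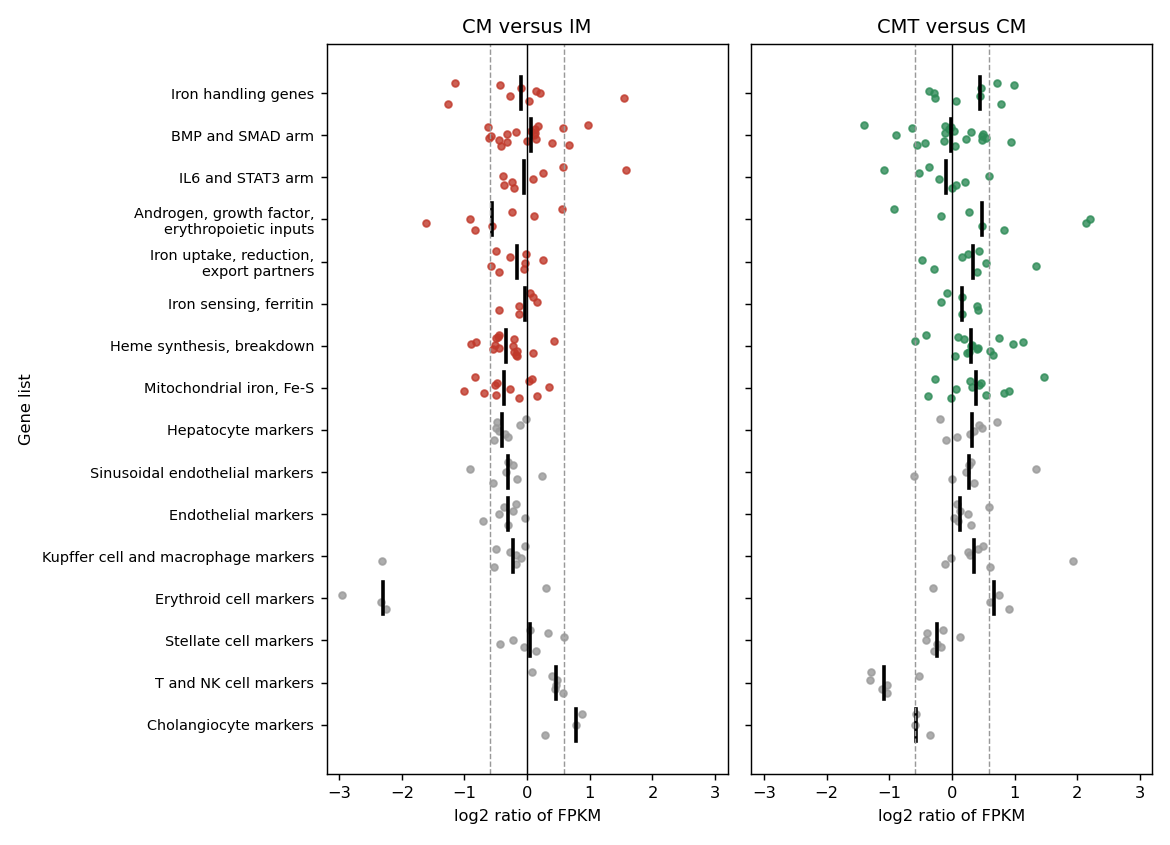
Log2 ratio of FPKM of each gene above the FPKM minimum in the iron lists (coloured) and the cell type marker lists (grey), with black bars at list medians and dashed lines at 1.5-fold, for CM versus IM and CMT versus CM. The medians of the androgen, heme and mitochondrial lists lie left of 0 for CM versus IM (-0.56, -0.33 and -0.37) and right of 0 for CMT versus CM (0.48, 0.31 and 0.38), as do the hepatocyte (-0.40 and 0.32), endothelial (-0.31 and 0.13) and Kupffer cell (-0.23 and 0.35) marker lists. When libraries are scaled to the hepatocyte markers, the heme, endothelial and Kupffer cell medians turn to 0.01, 0.03 and 0.12 for CM versus IM. The endothelial median for CMT versus CM then turns to -0.14. All genes have medians of 0.32 and -0.26 in the 2 comparisons under that scaling.

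The genes closest to HAMP were sought by the distance in the pair of log2 ratios CM to IM and CMT to CM, among 12118 genes with at least 10 FPKM in each of 3 libraries. With 3 libraries, such a likeness describes 2 ratios only. ZHX2, a zinc finger and homeobox protein, was closest to HAMP at a distance of 0.0093, followed by SLC5A9, PCK1, LOC100621325 and DQX1. PCK1, the cytosolic enzyme that commits oxaloacetate to glucose synthesis, had 15266 FPKM in IM, 6514 FPKM in CM and 11000 FPKM in CMT. For BMP6 the closest were KLHL3, SC5D, an enzyme of cholesterol synthesis, LOC100736851, SGPL1 and TNFAIP1. HAMP and BMP6 lay 0.14 apart, and 17 of the 12118 genes lay closer to HAMP than BMP6 did.

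**Figure D5:**
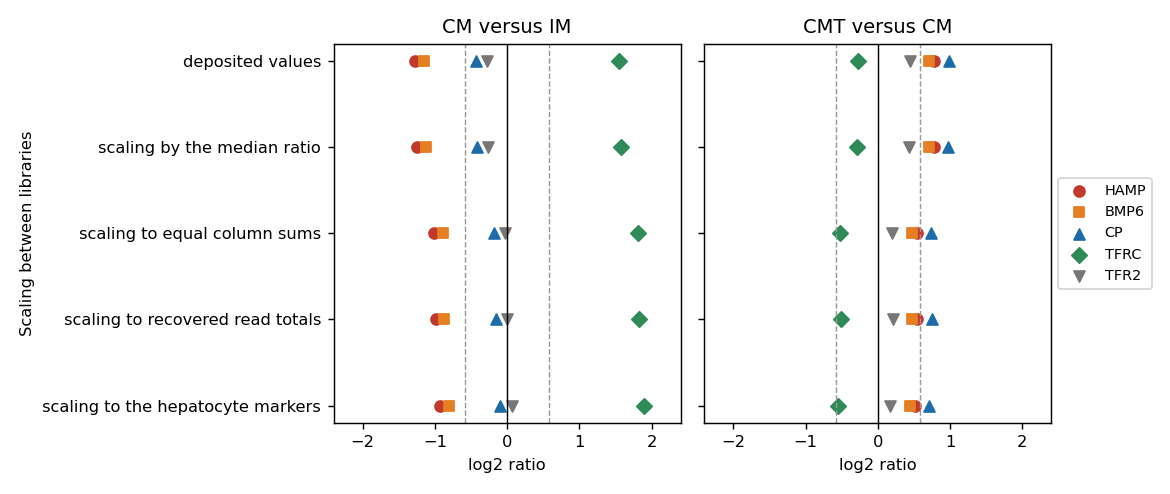
Log2 ratios of HAMP, BMP6, CP, TFRC and TFR2 for CM versus IM and CMT versus CM in the deposited values and under 4 scalings between libraries, with dashed lines at 1.5-fold. For CM versus IM, HAMP, BMP6 and TFRC stay outside the lines in each row and TFR2 moves across 0, and for CMT versus CM, CP stays outside while HAMP and BMP6 come inside in the lower 3 rows.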

How the data were processed

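The authors extracted total RNA from liver, pooled it by group, prepared poly-A libraries, sequenced paired ends on an Illumina HiSeq instrument and mapped the reads with TopHat at default settings to Sscrofa10.2, after FastQC. The authors deposited 1 table of FPKM values per library. The counting program and the annotation are not given in the sources used here. Columns beside the gene, its type and the FPKM were empty or held spreadsheet errors and were not used.

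FPKM values were used as deposited, without rescaling or pseudocount, and compared as ratios between libraries. A gene's values mostly step in equal units, from which a length of at most 10000 bases, a divisor per library (2.51, 3.42 and 2.04) and reads were recovered for 23100 of 24277 features above 0 (95.2%, tolerance 0.001), including 8 of the 9 genes. Recovered reads can be too few by a whole factor that all 3 share, which makes an interval too wide. Mates of a pair were often counted separately, which makes it too narrow. Which of these prevails for a given gene was not tested. The script was tested on simulated data. Depth in the order IM, CM, CMT was 32196547, 36125166 and 25418981 reads. Following the thresholds of the study, a minimum FPKM of 1 in each library and 1.5-fold served as a rule of size, since 1 library per group allows no test.

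The 10 members and the gene and marker lists were chosen with earlier results of these data known. Of 162 list genes, 142 were matched by symbol, 9 by NCBI gene ID, 1 by synonym, and 10 were not analysed here. Genes named were all members, every iron list gene past 1.5-fold in CM versus IM or CMT versus CM (23 genes), 16 genes fixed by name, and the 5 genes nearest to HAMP and to BMP6; a few of these are not reported here, and other genes and pairs were chosen after their values were seen. Alternatives were 3 other scalings, a pseudocount of 1, FPKM minimums of 10 and above 0, 2-fold, and a counting interval that leaves out 1, with scaling to the hepatocyte markers added after seeing the data. Python 3.11.15, numpy 2.4.6, pandas 2.3.3, scipy 1.17.1 and matplotlib 3.10.9 were used.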

Additional observations from a re-analysis of the deposited data

Results flagged for a closer look

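ALAS1, the enzyme that starts heme synthesis in the liver, was listed as a miscRNA and so stood outside the mRNA features that were compared, yet it carried a signal well above the level of 3 reads. Its level was 1522 FPKM in IM, 442 FPKM in CM and 711 FPKM in CMT. The ratio of CM to IM was 0.290 (0.272 to 0.310) and that of CMT to CM 1.61 (1.49 to 1.74), with the CM library lowest, as for HAMP. Scaling to column sums, read totals or hepatocyte markers moves every gene by the same factor. It took the HAMP ratio of CMT to CM, 1.72, under 1.5-fold, so that of ALAS1 falls under it too. The ratio of CMT to IM was 0.467 (0.437 to 0.499) for ALAS1, past 1.5-fold lower, against 0.714 for HAMP. With 1 library in each group, outlying samples were not sought.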

How the results depend on the processing

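With 1 pooled library per group, neither the spread between pigs nor a left-out replicate could be examined. No paired analysis was possible because each group has 1 library. Of the counts recomputed under 9 alternatives, 104 stayed within 1.5 times and 40 did not, and of the single-gene ratios with a counting interval 150 stayed within it and 66 did not. For SLC40A1, which has no interval, 12 values were unaltered and 15 were not. No called ratio of a single iron handling gene turned its direction, while the splits of the 7 lists did, and the cause of each move was not tested beyond the change of scale or threshold itself.

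For the 9 iron handling genes, the number higher in CMT than in CM went from 3 to 1, and the number lower from 0 to 1, under scaling to column sums, to read totals and to the hepatocyte markers. The number lowest in CM went from 2 to 0 under the same 3, and the number higher in CMT than in IM from 1 to 2 under read totals and hepatocyte markers. With 2-fold in place of 1.5-fold, 0 were higher in CMT than in CM and 0 lowest in CM.

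For the 7 iron lists in CM versus IM, the deposited values gave 3 genes higher and 10 lower. The median ratio gave 5 higher, column sums and read totals 9 higher and 4 lower, the hepatocyte markers 11 higher and 2 lower, and 2-fold 1 higher and 2 lower. In CMT versus CM, where 14 were higher and 6 lower, column sums and the hepatocyte markers gave 8 higher and 13 lower, read totals 13 lower, and 2-fold 5 higher and 2 lower. In CMT versus IM, where 5 were higher and 3 lower, 2-fold gave 1 higher and 0 lower, and requiring the counting interval to leave out 1 gave 1 lower. The number lowest in CM, 8, became 4 under column sums and read totals, 2 under the hepatocyte markers and 1 under 2-fold. The number highest in CM, 2, became 8, 8, 10 and 1 in the same order.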

Other observations

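The genes beside the members on the chromosome, taken from the gene order of the Sscrofa11.1 annotation and chosen after seeing the data, were read at their own levels. Next to HAMP, USF2 was at 709 FPKM in IM, 586 FPKM in CM and 728 FPKM in CMT, with ratios of 0.827 and 1.24 that did not pass 1.5-fold, and MAG was at 6.77, 3.06 and 7.69 FPKM, with ratios of 0.452 and 2.51 that both passed and ran the way of HAMP. Next to BMP6, SNRNP48 and TXNDC5 had ratios of CM to IM of 0.874 and 0.923. Next to TFRC, ZDHHC19 was at 1.96, 9.70 and 1.81 FPKM, a ratio of CM to IM of 4.95 that ran the way of TFRC, and TNK2 was at 278, 223 and 319 FPKM, a ratio of 0.802 that ran the other way without passing. MAG and ZDHHC19 were low, against 0.877 to 1.47 FPKM for 3 reads on 1 kilobase. No counting interval was computed for the neighbours, so the ratios of these low genes may be counting error. Next to CP, HPS3 had a ratio of CMT to CM of 1.1, against 1.98 for CP.

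Other markers of iron-recycling cells were also read. MARCO, a scavenger receptor of Kupffer cells, was at 414 FPKM in IM, 82.8 FPKM in CM and 317 FPKM in CMT, while CD163, the macrophage receptor for hemoglobin bound to haptoglobin, was at 1305, 909 and 1386 FPKM. Of 8 Kupffer cell and macrophage markers, 1 was lower in CM than in IM, a share of 12.5% against 12.1% of all genes. The summed level of the 8 was 11025, 8260 and 10402 FPKM in IM, CM and CMT, with none at 0.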
